A study of Mus musculus with 3 samples.

Results

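The replication-dependent histone genes are the 67 protein-coding genes whose symbol starts with Hist1h, Hist2h, Hist3h or Hist4h, among 55536 annotated genes. They were chosen by name alone, and 3 further symbols of that form, Hist1h2aj, Hist1h2al and Hist3h2bb-ps, have no protein-coding transcript and were left out. By the class in the name, 6 encode the linker histone H1 and 18 encode H2A. A further 18 encode H2B, 12 encode H3 and 13 encode H4. By gene cluster, 54 are Hist1 genes on chromosome 13, 10 are Hist2 genes on chromosome 3, 2 are Hist3 genes on chromosome 11, and Hist4h4 lies on chromosome 6 (mm10).

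RNA of the chromatin fraction was sequenced after ribosomal RNA depletion from primary macrophages derived from bone marrow of C57BL/6J mice. All cells were pretreated with lipid A at 100 ng/ml for 12 h, kept without it for 12 h, and stimulated again at 100 ng/ml for 90 min before collection. Lipid A is the membrane anchor of bacterial lipopolysaccharide and activates Toll-like receptor 4. The 3 libraries form 1 group, and replicates 1, 2 and 3 started from 1 µg, 250 ng and 500 ng of RNA. Age and sex were not collected, all 3 carry the same donor label, and nothing in the labels says that the cultures or animals were separate, so the spread given here may be technical. With no other condition, the data describe levels and no change on stimulation. Levels are TPM, a length-corrected share of a library, given as mean ± SD over n = 3 libraries unless stated. All 10 macrophage markers examined were detected at 1 TPM or more in every library (median 68.0 ± 7.22 TPM), while 0 of 5 neutrophil, 1 of 5 T cell, 0 of 5 B cell, 1 of 5 erythroid, 0 of 5 fibroblast and 2 of 5 cycling progenitor markers were detected.

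Replication-dependent histones package newly made DNA, and their genes are transcribed mostly in S phase. Their mRNAs as a rule carry no poly(A) tail. The pre-mRNA is cut just after a conserved stem-loop, which is bound by the stem-loop binding protein, with the U7 small nuclear RNP guiding the cut. Replication-independent variants such as H3.3 come from separate, intron-containing genes with polyadenylated mRNAs and are made throughout the cell cycle. Macrophages that have finished differentiation divide little, but bone marrow cultures can hold cells that still cycle.

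The stem-loop is printed because it is the element that these genes share and because its letters set H4 apart from the other classes. Annotated transcripts (GENCODE M21) were searched for a stem of 6 base pairs opening with GG around a loop of 4 bases opening with TT. It was found in 44 of 67 members (65.7%), against 0.276% of 58725 other protein-coding transcripts. All 13 members whose model holds coding sequence only lacked it, and 44 of the 54 longer models had it. The 6 forms are given as DNA, 5′ to 3′, with the loop in capitals.

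common form, 26 members: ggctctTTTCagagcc

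H4 form, 7 members: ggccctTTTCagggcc

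loop ending in A, 6 members: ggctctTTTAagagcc

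H4 form of Hist1h4i and Hist2h4: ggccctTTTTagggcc

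H4 form of Hist1h4b and Hist1h4j: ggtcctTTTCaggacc

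Hist2h2ac form: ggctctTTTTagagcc

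The common form was found in 3 H1, 10 H2A, 8 H2B and 5 H3 members and in 0 of the 11 H4 members with a stem-loop. Each of those 11 H4 members had 1 of the 3 H4 forms, and no member of another class had any of these. Hist2h2ac, the second most abundant member, was alone with its form.

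Few members were abundant. Only 13 of 67 members (19.4%) were detected at 1 TPM or more in every library, against 41.1% of 22015 nuclear protein-coding genes. At least 10 expected counts in each library, a limit that does not correct for length, were reached by 13 members (19.4%), against 46.4% of those genes. The members under these limits are not all the same. Hist1h4m reached 1 TPM in each library but not 10 counts, and Hist2h2be 10 counts but not 1 TPM. The members are shorter, with a median effective length of 300 bases against 1738, so at equal abundance they take fewer counts. The median member stood at 0.18, 0.42 and 0.51 TPM in replicates 1, 2 and 3 (0.37 ± 0.171), beside 0.35, 0.35 and 0.36 TPM for the median protein-coding gene. So the list held fewer genes past 1 TPM at a similar median. It also held fewer silent genes: 8 members (11.9%) had 0 counts in each library, against 33% of protein-coding genes.

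Above 0 TPM were 35 members in 3 libraries, 14 in 2 and 10 in 1. The members' TPM summed to 63.0, 89.7 and 96.6, or 0.00831% ± 0.00177 of all TPM, and they took 0.00400% ± 0.000182 of the expected counts. Replicate 1 was lowest by TPM, but its share of counts, 0.00400%, lay between those of replicate 2 (0.00382%) and replicate 3 (0.00419%). The median effective length of the members, which divides counts into TPM, was 334 bases in replicate 1, 279 in replicate 2 and 286 in replicate 3; its part in the TPM difference was not tested. Depth bears on every value below: total expected counts were 12671700, 21747001 and 16915406, and 3 counts, the most that a count of 0 allows, equal 0.827, 0.547 and 0.698 TPM at that length. These limits cover counting error only. Ordered by mean, 65 of 66 neighbouring members had overlapping ranges of mean ± SD, so the order of adjacent members is not resolved.

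**Figure D1:**
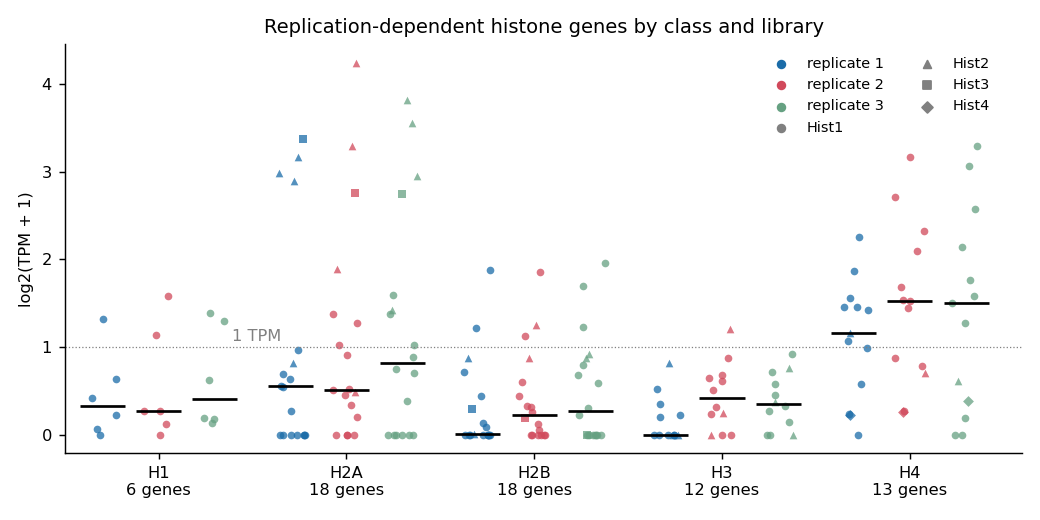
log2(TPM + 1) of each of the 67 members in each of the 3 libraries, by histone class; marker shape gives the gene cluster and black bars the class median in that library. The H4 medians, at 1.23, 1.88 and 1.83 TPM, are the highest of the 5 classes in each library, while the highest single point in each library is a Hist2 or Hist3 gene of class H2A.

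By TPM, H4 was the class with the broadest signal. The median H4 member stood at 1.23, 1.88 and 1.83 TPM (1.65 ± 0.362), against 0.553 ± 0.184 for H2A, 0.268 ± 0.066 for H1, 0.205 ± 0.180 for H3 and 0.127 ± 0.107 for H2B. The H4 median was above that of every other class in each library. Of the 13 members that reached 1 TPM in each library, 7 encode H4, 3 H2A, 2 H2B and 1 H1, and none encodes H3. H4 is a core histone that pairs with H3 in nucleosomes. The other transcript table, which the authors made directly from reads, gave an H4 median of 1.36 ± 0.189 TPM and medians from 0.115 to 0.451 TPM for the other classes.

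Within Hist1, the 3 highest members all encode H4. Hist1h4m (chr13:21811746-21812147, plus strand) stood at 1.75, 7.94 and 8.79 TPM, or 6.16 ± 3.84. Hist1h4n (chr13:21831767-21832196, minus strand) stood at 3.76, 5.53 and 7.34 TPM, or 5.54 ± 1.79. These 2 transcripts differ at 1 of 402 aligned bases, so reads are hard to divide between them, and only their sum of 5.51, 13.5 and 16.1 TPM is free of that division. Replicate 1 was the lowest for each gene and for the sum.

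Hist1h4h (chr13:23531050-23531519, plus strand) stood at 2.65, 1.88 and 4.95 TPM, with 7.62, 7.88 and 16.7 expected counts. Replicate 3 was highest, and the other libraries had similar counts. Further Hist1 H4 genes, named here after their values were seen, had means from 1.77 to 2.51 TPM: Hist1h4b, Hist1h4i, Hist1h4k, Hist1h4c and Hist1h4d. Of these, Hist1h4c varied least, at 1.75, 1.73 and 1.83 TPM. Hist1h4k, at 0.99, 3.26 and 2 TPM, rested on 1.24, 5.07 and 2.58 counts. At its length 3 counts equal 2.405, 1.93 and 2.33 TPM, so only replicate 2 was above that level. Hist1h4b rested on 2.31, 11.6 and 5.66 counts. The lowest H4 gene was Hist1h4a, at 0, 0.21 and 0 TPM. Outside Hist1, Hist2h4 stood at 1.23, 0.63 and 0.53 TPM and Hist4h4 at 0.17, 0.20 and 0.31 TPM, both below the Hist1 H4 median of 1.86 ± 0.163 in each library. For Hist4h4 this turned in the other transcript table, at 1.67 ± 0.323 TPM against a Hist1 H4 median of 1.40 ± 0.252, with Hist4h4 the higher in replicates 1 and 3.

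H2A held the most summed signal, and few genes made it up. The 18 H2A members summed to 34.7, 42.1 and 45.1 TPM, or 49.6% ± 4.73 of all member TPM, while H4 held 32.3% ± 3.69, H2B 9.84% ± 1.01, H3 4.14% ± 1.29 and H1 4.13% ± 0.00787. Of the H2A TPM, 68.7% ± 4.32 came from the 4 Hist2 genes, and the rest was divided between Hist3h2a (9.32, 5.75 and 5.72 TPM) and the 13 Hist1 genes (3.27, 6.58 and 7.11 TPM summed). None of the 13 Hist1 H2A members reached 1 TPM in each library.

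This order of the classes depended on members that share their locus with another gene. Leaving out the 11 members that overlap an annotated gene other than a miRNA entry, a step added after the data were seen, put H4 at 48.3% ± 1.51 and H2A at 27.5% ± 0.689. H4 then exceeded H2A in 3 of 3 libraries, whereas H2A exceeded H4 in 3 of 3 with all members. Strand use in the counting is not given in the sources used, so reads of opposite genes cannot be told apart.

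**Figure D2:**
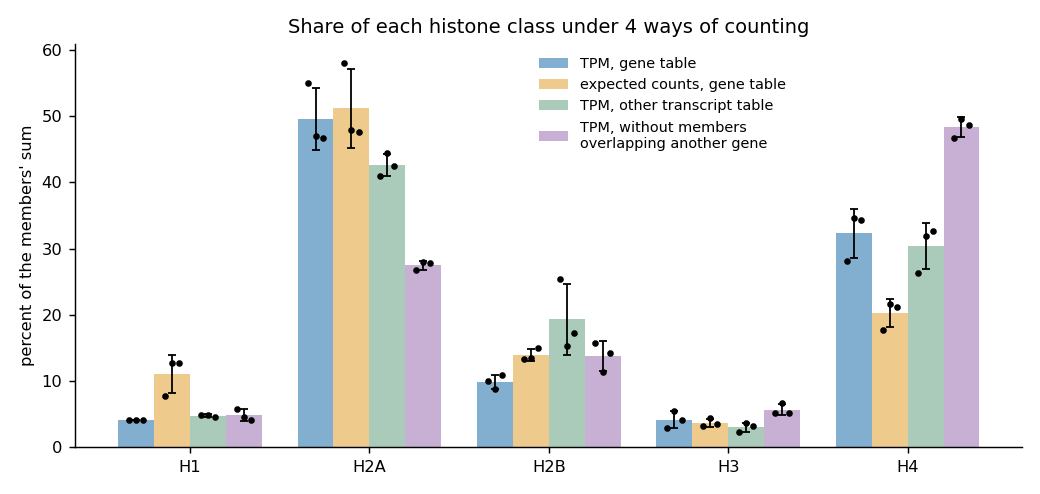
Percent of the members' sum on each histone class, as mean (bars), SD (error bars) and the 3 libraries (points), by TPM and expected counts of the gene table, by TPM of the other transcript table, and by TPM without the 11 overlapping members. H2A is highest in the first 3 ways (49.6%, 51.2% and 42.6%) and H4 is highest in the fourth (48.3%).

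Hist2h2ac (chr3:96220361-96220880, minus strand) is the most abundant member whose locus holds no other annotated gene apart from a miRNA entry. It stood at 6.43, 8.79 and 10.8 TPM (8.66 ± 2.16), from 22, 45.0 and 44 expected counts. It encodes an H2A protein and faces the H2B gene Hist2h2be.

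Hist2h2aa1 and Hist2h2aa2 are copies of 1 H2A gene, lying close together on opposite strands of chromosome 3, at 96245497-96246082 and 96239749-96240276. Their transcripts are identical over 528 aligned bases. Hist2h2aa2 was listed at 6.89, 17.9 and 13.1 TPM, and Hist2h2aa1 at 7.99, 0.40 and 6.74 TPM. The order of the copies thus turned between libraries, with nearly all signal placed on Hist2h2aa2 in replicate 2. Their sum was 14.9, 18.3 and 19.8 TPM, a coefficient of variation of 14.4%, against 43.8% for Hist2h2aa2 and 80.7% for Hist2h2aa1. In the other transcript table the sum was lower, at 9.43 ± 1.83 TPM, with Hist2h2aa2 at 6.20 ± 2.37 TPM. The deposited interval for Hist2h2aa2 in replicate 1, at a confidence level that its table does not state, ran from 0.560 to 12.0 TPM. Opposite these genes lie the antisense genes Gm20632, at 1.38 ± 0.220 TPM over Hist2h2aa2, and Gm20633, at 1.86 ± 0.616 TPM over Hist2h2aa1. Gm20634 overlaps Hist2h2aa1 on the same strand, at 1.42 ± 0.304 TPM, and took 52.3, 60.8 and 55.6 expected counts against 33.0, 2.59 and 34.2 for Hist2h2aa1.

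**Figure D3:**
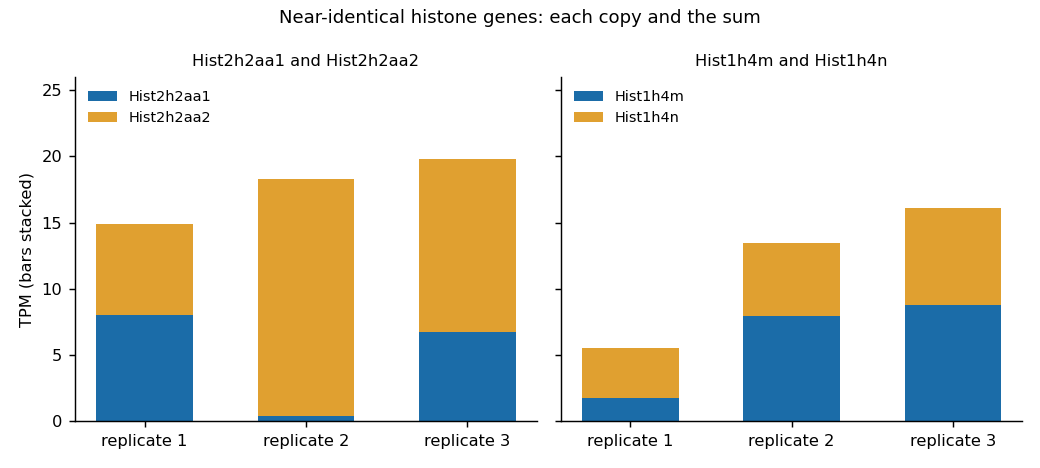
TPM of Hist2h2aa1 and Hist2h2aa2 (left) and of Hist1h4m and Hist1h4n (right) in each library, stacked so that bar height is the sum. The left sums, 14.9, 18.3 and 19.8 TPM, vary less than the split between copies, while on the right replicate 1 has the lowest sum, 5.51 TPM.

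Hist3h2a (chr11:58954685-58956830, plus strand) stood at 9.32, 5.75 and 5.72 TPM and, with a model of 2146 bases, took 29.1% ± 8.42 of all members' expected counts. It starts at the same base and runs on the same strand as Trim17, which stood at 2.23 ± 0.340 TPM. Unlike most members it was highest in replicate 1. Hist2h2ab, the other Hist2 H2A gene, stood at 0.77, 2.70 and 1.67 TPM. The testis gene Hist1h2aa had 0 counts in each library, as had Hist1h2ah and Hist1h2ao. The coding sequence of Hist1h2ao is identical to that of Hist1h2ap, so reads are hard to divide between these genes.

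H2B was low. Its most abundant gene, Hist1h2bg, named after its values were seen, stood at 2.67, 2.62 and 2.89 TPM and varied little. Hist2h2be stood at 0.84 TPM in each library, from 22, 39 and 30 counts on a model of 2620 bases, and the other transcript table gave 3.46 ± 2.50 TPM. Hist2h2bb (0.01, 1.38 and 0.90 TPM) and Hist3h2ba (0.23, 0.14 and 0 TPM) rested on under 4 counts in each library. Of the 18 H2B members, 4 had 0 counts in each library: the testis gene Hist1h2ba, and Hist1h2bl, Hist1h2bn and Hist1h2bp.

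Summed over all clusters, H2A exceeded H2B by 2.33 ± 0.20 on the log2 scale of summed TPM. Within Hist1 the same ratio was -0.23 ± 0.46, with H2A above H2B in replicate 2 and below it in replicates 1 and 3. The excess of H2A over all clusters thus rested on Hist2 and Hist3 genes. Without the overlapping members the ratio over all clusters was 1.01 ± 0.27. In the other transcript table it was 1.18 ± 0.44, and within Hist1 it was -0.83 ± 0.37.

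H3 gave the least detection. None of its 12 members reached 1 TPM in each library, and the class summed to 1.81, 4.89 and 3.96 TPM from 15.8, 35.7 and 25.0 counts. Summed H4 exceeded summed H3 by 3.01 ± 0.32 on the log2 scale, and by 3.52 ± 0.41 within Hist1; the other transcript table gave 3.36 ± 0.19 over all clusters. In Hist2, Hist2h3b stood at 0, 1.31 and 0.69 TPM, Hist2h3c2 at 0.77, 0.19 and 0.30 TPM, and Hist2h3c1 had 0 counts in each library. Hist2h3c1 and Hist2h3c2 have identical coding sequences, so reads are hard to divide between them. The lowest Hist1 H3 gene was Hist1h3g, at 0, 0.25 and 0 TPM. At the depths given above, most H3 members could not be told from 0 in a given library.

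In the gene table H1, the linker histone that binds DNA between nucleosomes, was carried mostly by Hist1h1c and Hist1h1e, both named after their values were seen. Hist1h1c stood at 1.5, 1.99 and 1.62 TPM and Hist1h1e at 0.55, 1.20 and 1.46 TPM, with Hist1h1e overlapping Hist1h2be on the same strand. Hist1h1d stood at 0.05, 0.09 and 0.14 TPM on a model of 7425 bases. In the other transcript table Hist1h1d had 0.804 ± 0.275 TPM, beside 0.752 ± 0.33 for Hist1h1e and 1.23 ± 0.077 for Hist1h1c. The testis gene Hist1h1t was the lowest, at 0, 0 and 0.10 TPM. H1 models are long, and the class held 11.1% ± 2.87 of the members' counts against 4.13% of their TPM.

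By cluster, Hist1 held 52.4% ± 6.44 of member TPM, Hist2 38.1% ± 1.40, Hist3 9.21% ± 5.15 and Hist4 0.271% ± 0.0489. Hist2 has 10 of the 67 genes. Its share rested on H2A: among members of the other classes Hist2 held 8.51% ± 1.95, and of H4 it held 6.95%, 2.03% and 1.60% in replicates 1, 2 and 3, with a mean of 3.53% and of 1.82% without replicate 1. The 6 highest members, Hist2h2aa2, Hist2h2ac, Hist3h2a, Hist1h4m, Hist1h4n and Hist2h2aa1, held 54.4% ± 2.84 of all member TPM.

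Where a transcript model ends decides how reads past the stem-loop are counted. In 22 members the model ends within 100 bases of the stem-loop, and in another 22 it runs further. The median TPM was alike, at 0.467 ± 0.0896 for the short ends and 0.448 ± 0.0475 for the long ends. The short-end members held 58.1% ± 5.43 of member TPM and 27.1% ± 5.11 of counts, whereas the long-end members held 28.8% ± 8.97 of TPM and 61.5% ± 6.95 of counts. The 23 members with no stem-loop found had a median of 0.267 ± 0.270 TPM.

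Many members lie head to head. There were 13 divergent pairs with starts 176 to 660 bases apart, 12 of them in Hist1 and 12 joining an H2A to an H2B gene. In 6 pairs the same gene was higher in each library, and in 1 pair, Hist1h2ba and Hist1h2aa, both genes had 0 counts. H2B was the higher in some pairs and H2A in others. In the pair of Hist1h2ae and Hist1h2bg, the H2A gene stood at 0.95, 0.37 and 0.85 TPM, below Hist1h2bg in each library. In the pair of Hist1h2ap and Hist1h2br, the H2A gene stood at 0.47, 1.60 and 2.01 TPM and Hist1h2br at 0, 0.09 and 0.17 TPM. Reads of this pair are hard to divide from those of the pair of Hist1h2bq and Hist1h2ao. Hist1h2ap and Hist1h2ao have identical coding sequences, as have Hist1h2br and Hist1h2bq. In that other pair H2B was the higher gene, with Hist1h2bq at 0.10, 0.26 and 0.73 TPM and Hist1h2ao at 0 counts. These pairs are both among the 6. The deposited interval for Hist1h2br reached up to 1.68, 1.71 and 2.59 TPM. In Hist2, Hist2h2ac was above Hist2h2be in each library by TPM, but their counts were 22 and 22 in replicate 1, 45.0 and 39 in replicate 2, and 44 and 30 in replicate 3. The models differ in length, 520 against 2620 bases, and in the other transcript table Hist2h2ac was higher in 2 of 3 libraries.

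**Figure D4:**
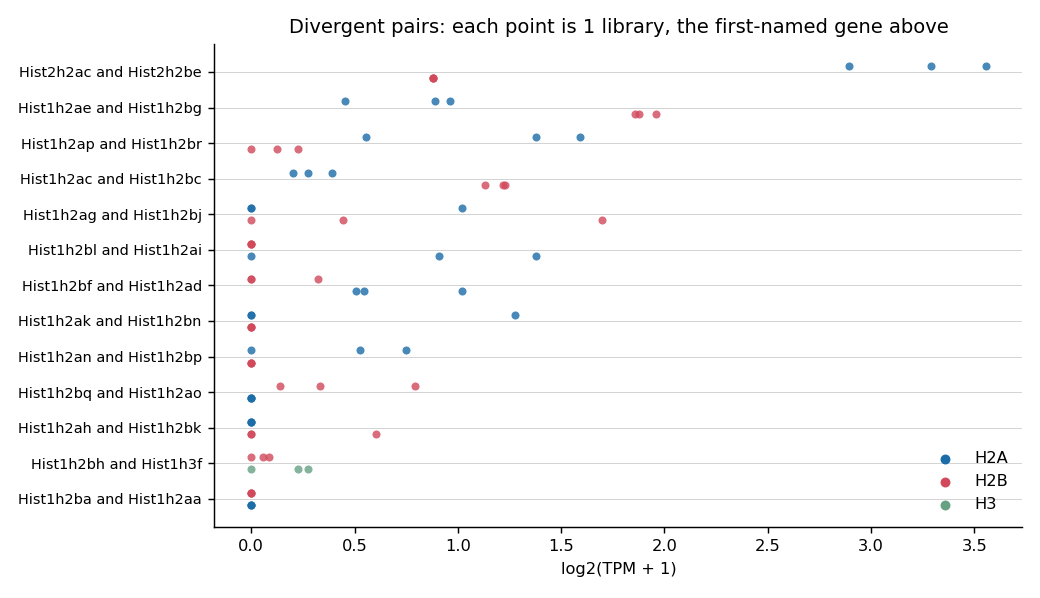
log2(TPM + 1) of both genes of the 13 divergent pairs, 1 point per library, coloured by histone class. Hist2h2ac at 6.43 to 10.8 TPM stands furthest from its partner, Hist2h2be at 0.84 TPM, and neither H2A nor H2B is the higher gene throughout.

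The start regions are shown because the matches to some motifs, CCAAT among them, fell unevenly over the classes. RefSeq promoters (GRCm38.p6, 250 bases before to 50 after the start) were matched for 61 members and searched on both strands for 3 motifs. The letters were TATAAA for the TATA box, then CCAAT for the factor NF-Y, and ATTTGCAT for the octamer bound by Oct-1. Overlaps between motifs were not removed, and divergent genes share part of a window, so a match can count for both. CCAAT was found in 52 of 61 members (85.3%), against 37.4% of all 32851 promoters. It was found in every matched H1, H2A, H2B and H3 member but in 3 of 12 H4 members. TATAAA was found in 34 of 61 (55.7%) against 13.6% of all promoters, with H4 at 8 of 12. ATTTGCAT was found in 13 of 61 (21.3%) against 1.74%, in 7 of 18 H2A and 6 of 16 H2B members and in none of the other classes. The 150 bases before the start are printed for an abundant H2A and an abundant H2B gene and for 2 of the 3 highest H4 genes, 1 with TATAAA and 1 with none of the motifs, on the gene's strand with these motifs, in either direction, in capitals.

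Hist2h2ac, chr3:96220881-96221030, minus strand: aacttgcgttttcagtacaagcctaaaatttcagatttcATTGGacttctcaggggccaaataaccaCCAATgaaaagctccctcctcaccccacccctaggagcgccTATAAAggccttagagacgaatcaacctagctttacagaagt

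Hist1h2bg, chr13:23571250-23571399, plus strand: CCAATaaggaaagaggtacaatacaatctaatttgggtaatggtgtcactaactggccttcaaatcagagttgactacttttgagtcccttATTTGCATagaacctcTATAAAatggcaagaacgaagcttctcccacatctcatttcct

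Hist1h4m, chr13:21811596-21811745, plus strand: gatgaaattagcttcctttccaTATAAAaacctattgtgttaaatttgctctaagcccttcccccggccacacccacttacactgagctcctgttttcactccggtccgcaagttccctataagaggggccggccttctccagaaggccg

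Hist1h4h, chr13:23530894-23531043, plus strand: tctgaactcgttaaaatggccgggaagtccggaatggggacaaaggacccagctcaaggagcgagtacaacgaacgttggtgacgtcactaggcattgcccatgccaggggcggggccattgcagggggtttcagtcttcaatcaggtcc

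Hist2h2ac holds CCAAT in each direction and TATAAA, Hist1h2bg holds CCAAT, the octamer and TATAAA, Hist1h4m holds TATAAA alone, and the stretch of Hist1h4h holds none of these letters. A match is a description of letters, not of binding.

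By list median, genes that make and handle histone mRNA were present at higher levels than the members. Of the 16 genes of histone pre-mRNA processing, 13 were detected, and the median was 6.18 ± 0.405 TPM. The highest were Srrt (155 ± 10.5 TPM), which encodes the cap-associated factor ARS2, Cstf3 (31.4 ± 7.16) and Cpsf1 (27.9 ± 10.6), which encode cleavage factor subunits. Not detected were Lsm11 (0.94 ± 0.27 TPM), Zfp473 (0.12 ± 0.087 TPM) and Rnu7. The other transcript table gave 3.03 TPM for Lsm11 and 3.44 TPM for Zfp473. Rnu7, the U7 small nuclear RNA, was listed at 0 in each library. The labels give a library size range of 250 to 400, and whether such libraries can hold so small an RNA was not tested. This 0 therefore does not show that Rnu7 was absent. Slbp, the stem-loop binding protein, named for its role, stood at 18.4, 13.2 and 15.5 TPM. It exceeded every histone member in replicates 1 and 3, while in replicate 2 Hist2h2aa2 was higher, at 17.9 TPM.

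Of the 15 genes of histone gene transcription, 14 were detected, and the median was 7.83 ± 1.06 TPM. Nfya, a subunit of the CCAAT-binding factor NF-Y, stood at 77.2 ± 13.0 TPM. Supt5, an elongation factor, stood at 44.6 ± 3.52 TPM, and Hinfp, an activator of H4 genes, at 39.2 ± 5.98 TPM. The lowest was E2f1, at 1.30 ± 0.487 TPM. Npat, the coactivator of histone genes, named for its role, stood at 6.33, 3.05 and 4.86 TPM.

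Replication-independent histones carried more signal than the whole family of 67. Their 12 genes summed to 226.6, 230.3 and 229.2 TPM. H3f3b, which encodes H3.3, stood at 100.0, 98.5 and 88.2 TPM, alone above the members' sum in replicates 1 and 2 and below it in replicate 3. H2afy, which encodes macroH2A1, stood at 73.7 ± 6.85 TPM and H2afz, which encodes H2A.Z, at 27.5 ± 6.47 TPM. H2afb1 was listed at 0. Taken gene by gene the contrast was smaller: 7 of 12 reached 1 TPM in each library, and the list's median log2(TPM + 1) exceeded that of the members by 0.91 ± 0.06.

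S phase and proliferation genes stood at a similar distance. Their median log2(TPM + 1) exceeded that of the members by 0.93 ± 0.20, positive in 3 of 3 libraries, and 11 of 20 reached 1 TPM in each library. The highest were Mki67 (73.6, 40.1 and 48.4 TPM), a marker of cycling cells, Tk1 (24.1 ± 4.30), which makes thymidine nucleotides, and Pcna (18.6 ± 5.55), the replication clamp. The summed TPM of this list was highest in replicate 1 (156.7, 119.1 and 112.1), the library in which the histone members summed lowest. Mki67 alone made up 73.6 of the 156.7 TPM. The list's median TPM went the other way and was lowest in replicate 1, at 1.425 against 1.965 and 1.46 in replicates 2 and 3. By share of counts the members were not lowest in replicate 1. Fewer cells in cycle and less RNA per cell cannot be told apart in bulk samples. Restricted to genes averaging 1 TPM or more, the difference from the members was 0.09 ± 0.26.

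Histone chaperones, which carry histones to and from DNA, had the highest median of the 5 lists, with 11 of 13 at 1 TPM in each library and a median of 13.9 ± 1.11 TPM. Daxx, a chaperone of H3.3, stood at 173.6, 110.9 and 113.5 TPM. Nap1l4 (43.9 ± 4.19 TPM) binds H2A and H2B, and Asf1a (22.3 ± 7.02 TPM) binds H3 and H4. The lowest was Asf1b, the form tied to proliferation, at 0.243 ± 0.108 TPM.

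**Figure D5:**
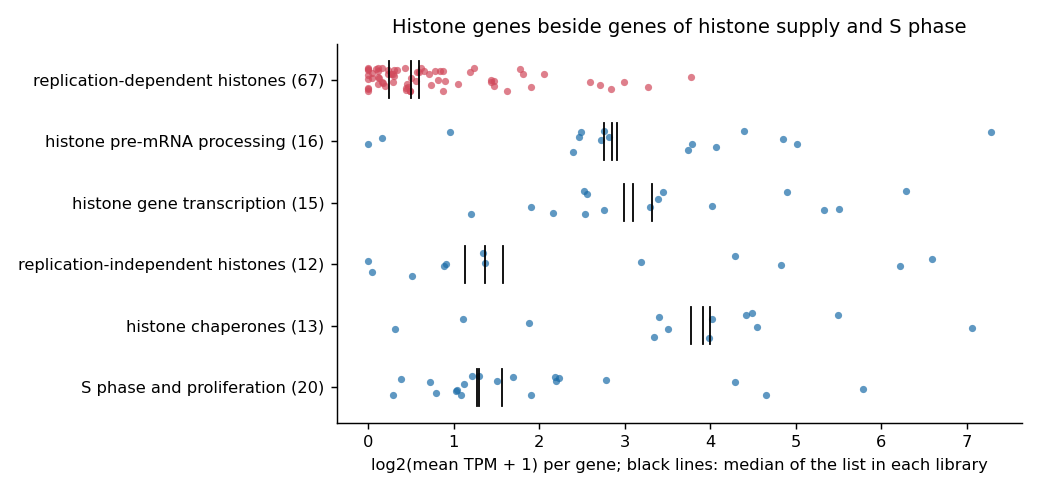
log2(mean TPM + 1) of each gene of the 67 members and of 5 lists, with black lines at the list's median in each library. The members lie lowest, and the medians of replication-independent histones and S phase genes exceed theirs by 0.91 and 0.93 on this scale.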

How the data were processed

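Chromatin-associated RNA was measured in 3 libraries of 1 group. Per the file headers, the authors deposited a gene table from alignments and a transcript table from reads, on mm10 with GENCODE M21. No source used here names the aligner or quantifiers. The deposited expected counts are estimates and can be fractional. The deposited TPM are relative to all rows of a table. The 26345 rows that are no annotated gene held 1.34%, 0.292% and 0.416% of expected counts in replicates 1, 2 and 3 and stay in the totals given here. The deposited posterior mean TPM served as an alternative. Values are sums or medians over genes within a library, with mean and SD over libraries. A gene counted as detected at 1 TPM in each library, and list differences used log2(TPM + 1), which understates differences of low genes. A test between groups was not possible with 1 group, and no p-value is given. Transcripts of the other table were summed per gene. Members overlapping another gene were found from the annotation. Near-identical copies can share reads, so single members are less certain than class sums.

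Members and lists were chosen with earlier results of these data known. The text names all members of Hist2, Hist3 and Hist4, the 3 highest Hist1 members, the lowest Hist1 member of each class, and the 3 highest genes and the lowest of each list; any other gene was named after its values were seen or for its role. Some genes that this rule takes are not reported here. Promoters were matched by symbol or older symbol. Alternatives, given in the closing section, used expected counts rounded to whole numbers for edgeR 4.0.16 (TMM) and DESeq2 1.42.0 (size factors) in R 4.3.3. Other steps ran in Python 3.11.15 with pandas 2.3.3, and were tested on simulated data.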

Additional observations from a re-analysis of the deposited data

How the results depend on the processing

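Leaving out replicates 1, 2 and 3 in turn put 17, 14 and 13 members at 1 TPM in each library left, against 13 with all 3. The other summaries are means over libraries. With 3 libraries, leaving 1 out cannot move a mean by as much as the SD between them. For these summaries the step could therefore not show dependence on a single library. No paired analysis was possible because the libraries form 1 group. Only the log2 differences between lists can change sign, and they stayed positive under every alternative run.

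TPM rescaled to protein-coding genes put 24 members at 1 TPM in each library (13 unscaled), the median member at 1.27 TPM, the members at 0.0281% of the total, and the 2 log2 differences at 1.49 for replication-independent histones and 1.53 for S phase genes. Limits of 0.1 and 5 TPM left 33 and 3 members. Members with a mean of at least 1 TPM had a median of 2.27 TPM; between genes at that level the differences were 2.55 and 0.091. With expected counts in place of TPM the members held 0.00400% of the total, with H2B at 13.9%, H4 at 20.2%, H1 at 11.1%, Hist1 at 43.3% and Hist2 at 26.1% of the members' sum. The other transcript table gave H2A 42.6%, H2B 19.3%, H1 4.75% and Hist2 34.4%, and differences of 1.27 and 1.46. A pseudocount of 0.1 gave 1.88 and 1.93. TMM log2 CPM gave 3.92 and 4.20, and DESeq2 size factors 3.91 and 4.19; neither corrects for gene length.

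Some alternatives were added after seeing the data. The posterior mean TPM gave a median of 0.603 TPM, H2B 14.1%, H3 6.00%, H1 3.91%, Hist2 33.4%, and differences of 1.01 and 1.20. Without members overlapping another gene the share of TPM was 0.00510%, with H2A 27.5%, H2B 13.8%, H3 5.62%, H4 48.3%, H1 4.80%, Hist1 77.6% and Hist2 21.7%, and the replication-independent difference was 1.02. Without genes at 0 counts in every library that difference was 0.84. The members took 507.1, 831.3 and 708.2 expected counts in replicates 1, 2 and 3, so single members are limited by depth.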

Other observations

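Between the gene table and the other transcript table, 4 members with at least 1 count on average were over 3 times higher in the other table: Hist1h1d (0.0933 against 0.804 TPM), Hist4h4 (0.227 against 1.67 TPM), Hist2h2be (0.84 against 3.46 TPM) and Hist1h2bq (0.363 against 1.24 TPM). Taking 1 model per member, in 3 of these 4 it is longer than 1000 bases, as it is in 16 of the 67 members. The exception is Hist1h2bq, whose model taken here has 381 bases. It also has transcripts of 1254 bases (0, 0.26 and 0.47 TPM) and 2015 bases (0.10, 0 and 0.09 TPM). Hist1h1d, an H1 gene, has the longest of the 4 models, at 7425 bases. Hist2h2bb and Hist2h3b, with models of 381 and 488 bases, were over 3 times higher in the gene table. These genes were picked for this difference.

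The annotation places 17 miRNA entries over members, each over a different H2A gene. Together they took 0.6, 0 and 3.09 expected counts in replicates 1, 2 and 3, so they held little signal beside the H2A genes, which took 294.3, 398.0 and 337.3 counts. Of Hist1h2be, which has several annotated transcripts, the processed transcript with no coding sequence stood at 0.20, 0.06 and 0.18 TPM and the main protein-coding transcript at 0.43, 0.30 and 0.42 TPM.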
